A study of Mus musculus with 3 samples.

Results

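Plvap-high endothelial cells (ECs) were the retinal ECs with a high level of *Plvap* (ENSMUSG00000034845), and 395 of the 3201 ECs in the series met the definition. Cells were chosen by their own unique molecular identifier (UMI) counts. Cells needed 1000 or more UMIs, of which mitochondrial UMIs could be 15% at most. It was called endothelial when *Pecam1*, *Cdh5*, *Egfl7*, *Esam*, *Tie1*, *Eng*, *Ecscr* and *Flt1* together reached 10 per 10000 UMIs with at least 3 of them detected, and when *C1qa*, *Cx3cr1* and *Csf1r* together stayed under 5 per 10000. A Plvap-high EC further had at least 5 *Plvap* UMIs per 10000, at least 2 *Plvap* UMIs, and under 3 UMIs per 10000 of the mitotic genes *Top2a*, *Mki67* and *Cenpf*. The reference was the 1079 ECs under the same mitotic limit that had no *Plvap* UMI, called Plvap-zero ECs here.

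*Plvap* encodes the protein that forms the diaphragms of fenestrae, caveolae and transendothelial channels. It is a feature of leaky, exchanging capillaries, and it is switched off as the vessels of the brain and the retina build their barrier. In the retina that step depends on Norrin, a ligand that binds the receptor FZD4 with its co-receptor LRP5 and the tetraspanin TSPAN12, and that stabilises β-catenin in ECs. Barrier ECs carry claudin-5 at their junctions and solute carriers such as GLUT1, the product of *Slc2a1*.

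Retinal vascular cells of postnatal day 6 (P6) mice were profiled in 1 library per genotype by 3′ droplet single-cell RNA sequencing. WT mice were compared with *Tspan12* knockout (KO) mice and with *Ctnnb1* cKO mice, in which *Ctnnb1* (β-catenin) was deleted in ECs by the tamoxifen-inducible Pdgfb-iCreERT after injection in the first postnatal days. The strain was C57BL/6, each library pooled the retinas of several pups, and WT pups came from other litters than the knockouts. Cells had been enriched with CD31 and CD11b beads, so shares refer to enriched cells. With 1 library per genotype, genotype, litter and library cannot be told apart, and no difference between genotypes was tested.

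The libraries held 9951 (WT), 14426 (*Tspan12* KO) and 9151 (*Ctnnb1* cKO) barcodes, and 13, 48 and 334 Plvap-high ECs. These had a median of 5482, 15160 and 4905 UMIs per cell and 104567, 1051465 and 2091643 UMIs in all, against 8299, 4410 and 2848 UMIs per Plvap-zero EC. The WT values below therefore rest on 13 cells. The deepest of them held 23870 of the 104567 WT UMIs. It was also the WT member with the most UMIs of *Cldn5*, *Gja4*, *Cxcl12*, *Itm2a*, *Nebl*, *Glul*, *Ier3*, *Sgk1* and *Tcim*. Between 21 and 37 barcodes were shared by each pair of libraries, none of them an EC in both, and no Plvap-high EC barcode was shared by 2 libraries as a member. The targeted genes did not check the labels, because 3′ reads can come from a transcript that keeps its 3′ end and the sources do not place the deleted exons. *Tspan12* stood at 124, 102 and 44.5 CPM (counts per 1000000 UMIs of the summed cells) in Plvap-high ECs of WT, *Tspan12* KO and *Ctnnb1* cKO, and *Ctnnb1* at 469, 692 and 486 CPM. Doublets were kept in the values below and removed in an alternative. Of the Plvap-high ECs, 1, 4 and 11 were among the cells with the highest doublet scores, and 1, 11 and 18 carried more than 20 UMIs per 10000 from the marker list of another retinal cell type. Of the 164, 88 and 827 Plvap-zero ECs, 14, 17 and 49 had such scores, and 17, 31 and 74 carried such markers.

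Plvap-high cells made up a larger share of the ECs in the knockout libraries. WT held 13 among 596 ECs (2.18%, exact binomial 95% interval 1.17 to 3.70%), the *Tspan12* KO library 48 among 401 (11.97%, 8.96 to 15.6%) and the *Ctnnb1* cKO library 334 among 2204 (15.2%, 13.7 to 16.7%). These intervals cover counting error only. The WT interval lay below both others, and the 2 knockout intervals overlapped. With every EC thinned to 2000 UMIs the shares were 2.22%, 8.82% and 11.1%, after 10, 27 and 383 shallower cells had been left out. At that depth 1 *Plvap* UMI reaches the rule's level, so its minimum of 2 UMIs was a stricter limit than in deeper cells. These shares are therefore not the main shares at equal depth. Thinned ECs with at least 1 *Plvap* UMI were 16.7%, 34.8% and 35.8%, with the knockouts close together and both above WT. Rods, which should lack *Plvap*, seldom reached the rule's level. Of the rods, 0 of 3203, 0 of 6252 and 1 of 734 met the *Plvap* part of the rule, although 1.97%, 3.01% and 5.72% had at least 1 *Plvap* UMI at median depths of 4444, 5306 and 3412 UMIs, against 64.6%, 73.3% and 51.8% of ECs at 16154, 17437 and 4129 UMIs.

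The level of *Plvap* itself, which the rule set, ran from 5.11 to 18.5 per 10000 UMIs for WT, with a median of 7.30. For *Tspan12* KO the range was 5.20 to 17.7 and the median 7.11, and for *Ctnnb1* cKO 5 to 32.6 and 8.91. Cells at 20 or more per 10000 numbered 0, 0 and 17. The 0 of 13 and 0 of 48 allow shares of up to 24.7% and 7.40% (exact binomial), so they do not show a lower share. Over the 334 *Ctnnb1* cKO members the *Plvap* level fell with UMIs per cell (Spearman −0.26). Members had a median of 4, 11.5 and 4 *Plvap* UMIs. Close to the limit, 3, 12 and 53 members lay between 5 and 6 per 10000, and 4, 20 and 100 non-cycling ECs lay between 4 and 5. Another 0, 7 and 58 ECs reached the level with a single UMI and were left out. The mitotic limit left out 7, 27 and 62 ECs that met the *Plvap* rule, and with them the shares were 3.36%, 18.7% and 17.97%.

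**Figure D1:**
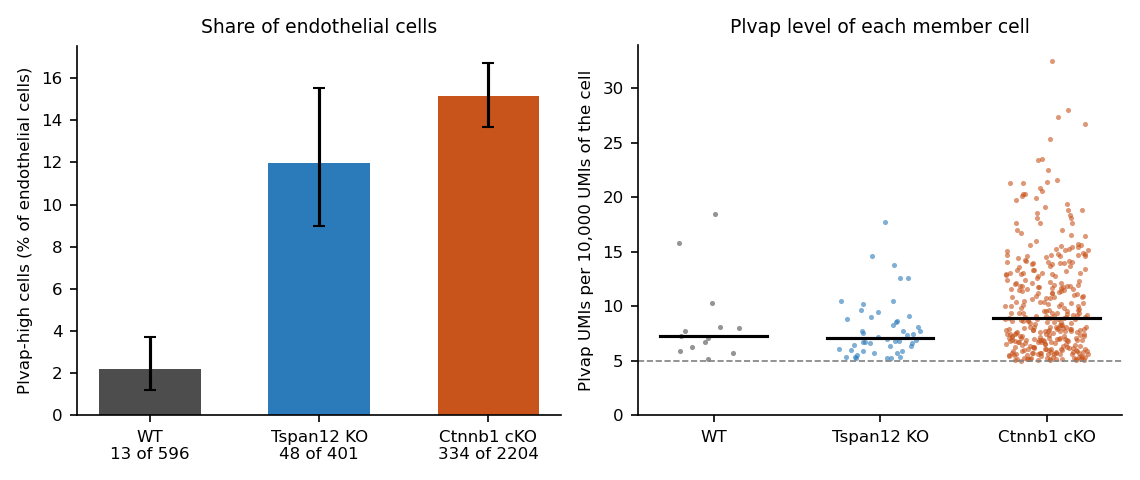
The left panel plots the percentage of endothelial cells that were Plvap-high in each library, with exact binomial 95% intervals; the right panel plots *Plvap* UMIs per 10,000 UMIs of each of the 13, 48 and 334 cells, with the median as a black line and the rule's limit of 5 dashed. Both knockout shares, 11.97% and 15.2%, lie above the WT share of 2.18%, and 17 of the 334 *Ctnnb1* cKO cells reach 20 or more.

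Of the 3 other genes proposed as markers of these cells, *Gpihbp1* was higher than in Plvap-zero ECs of every library. *Eln* and *Mgp* were higher beyond counting error in *Ctnnb1* cKO and not in the other libraries. *Gpihbp1* (ENSMUSG00000022579), the protein that carries lipoprotein lipase across capillary endothelium, stood at 76.5, 95.1 and 281 CPM in Plvap-high ECs of WT, *Tspan12* KO and *Ctnnb1* cKO, against 10.7, 5.44 and 42.3 CPM in Plvap-zero ECs. All 3 Plvap-high values lay above all 3 Plvap-zero values. *Eln* (ENSMUSG00000029675), which encodes elastin, stood at 0, 13.3 and 349 CPM against 35.8, 10.9 and 132 CPM. *Mgp* (ENSMUSG00000030218), matrix Gla protein, an inhibitor of calcification and of bone morphogenetic proteins, stood at 0, 127 and 721 CPM against 164, 241 and 411 CPM. No UMI of either gene was found in the 13 WT cells. Against a floor of 3 counts, *Mgp* in their sum was at least 5.70-fold below the sum of the WT Plvap-zero ECs. The *Mgp* UMIs of the latter came from 9 of 164 cells (5.49%), and 0 of 13 allows a share of up to 24.7% (exact binomial). The bound on the sums therefore does not show that fewer WT Plvap-high ECs expressed *Mgp*. *Mgp* was lower in Plvap-high than in Plvap-zero ECs of *Tspan12* KO (log2 ratio −0.92, 95% counting interval −1.25 to −0.58) and higher in *Ctnnb1* cKO (0.81, 0.70 to 0.92). By cells the *Tspan12* KO classes were alike, with *Mgp* in 9 of 48 (18.8%) and 15 of 88 (17.0%). Among those Plvap-zero ECs, *Mgp* was at 2356 CPM in the 9 richest in *Eln* and *Mgp* and at 25.4 CPM in the other 79. The pericyte gene *Rgs5* was at 8673 and 237 CPM there, and the part of pericyte RNA was not tested. Across the 3 libraries *Gpihbp1* was called, and *Eln* (adjusted p = 0.276) and *Mgp* (adjusted p = 0.811) were not in edgeR's quasi-likelihood test. The name Plvap-high is used for the *Plvap* rule alone.

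The comparison of Plvap-high with Plvap-zero ECs asked which other genes went with *Plvap* within a library. UMIs were summed per library and class, giving 3 pairs of sums, and were tested with edgeR's quasi-likelihood test with library as a term. Because the 3 libraries are 3 genotypes, its p-values measure how alike the class difference was across them. Of 10668 genes, 80 were higher in Plvap-high ECs (0.75% of genes tested) and 188 were lower (1.76%) at an adjusted p under 0.05. The direction was the same in all 3 libraries for 52 of the 80 and 172 of the 188. The median log2 fold change of all genes was −0.02.

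The largest rises are given here for genes with at least 20 CPM in the higher class of every library and 1 sign in all 3, which leaves out, among others, *Timp4* and *Lrg1*. *Gpihbp1* rose by a log2 fold change of 3.16 (SE 0.31, adjusted p = 1.74e-06 in edgeR). *Ramp3*, which pairs with the calcitonin receptor-like receptor to form an adrenomedullin receptor, stood at 28.7, 96.1 and 106 CPM in Plvap-high ECs of WT, *Tspan12* KO and *Ctnnb1* cKO against 1.07, 13.6 and 15.7 CPM (log2 fold change 3.08, SE 0.34, adjusted p = 7.09e-06). *Ednrb*, the endothelin B receptor, stood at 28.7, 72.3 and 121 CPM against 6.95, 2.72 and 17.4 CPM (3.15, SE 0.37, adjusted p = 1.22e-05). The higher class lay above the lower in each library for these genes, but the WT values of *Ramp3* and *Ednrb* were 3 UMIs each, and the WT counting interval of *Ednrb* included no difference (−0.41 to 3.91 on the log2 scale). *Igfbp3*, a secreted binder of insulin-like growth factors, was the most abundant of the group, at 1042, 408 and 2233 CPM against 134, 140 and 564 CPM (2.28, SE 0.28, adjusted p = 3.54e-05). In WT it was found in 5 of the 13 cells, and 1 cell held 51.4% of its UMIs.

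The calcium-binding proteins *S100a6* and *S100a10* rose as well. *S100a6* was at 191, 572 and 490 CPM against 41.2, 159 and 165 CPM (log2 fold change 1.97, SE 0.25, adjusted p = 4.98e-05 in edgeR). *S100a10*, the annexin A2 partner, was at 124, 345 and 362 CPM against 118, 59.8 and 155 CPM, so that the WT classes were close (1.53, adjusted p = 0.00892), and its call was lost without *Tspan12* KO or without *Ctnnb1* cKO. The prostaglandin transporter *Slco2a1* was at 47.8, 52.3 and 102 CPM against 33.7, 17.7 and 30.8 CPM (1.59, adjusted p = 0.00406), and lost its call without *Ctnnb1* cKO. The other 3 of the 10 largest rises within these limits were the stress-response genes *Ier3* (1.63) and *Sgk1* (1.49) and the small protein gene *Tcim* (1.496), each higher in Plvap-high ECs of all 3 libraries. In WT, the deepest cell held 72.2%, 61.7% and 66.7% of the UMIs of *Ier3*, *Sgk1* and *Tcim*, and another cell held 76.9% of those of *S100a10*. The calls of *Gpihbp1*, *Ramp3*, *Ednrb* and *S100a6* held in all 14 alternatives that kept the library term.

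**Figure D2:**
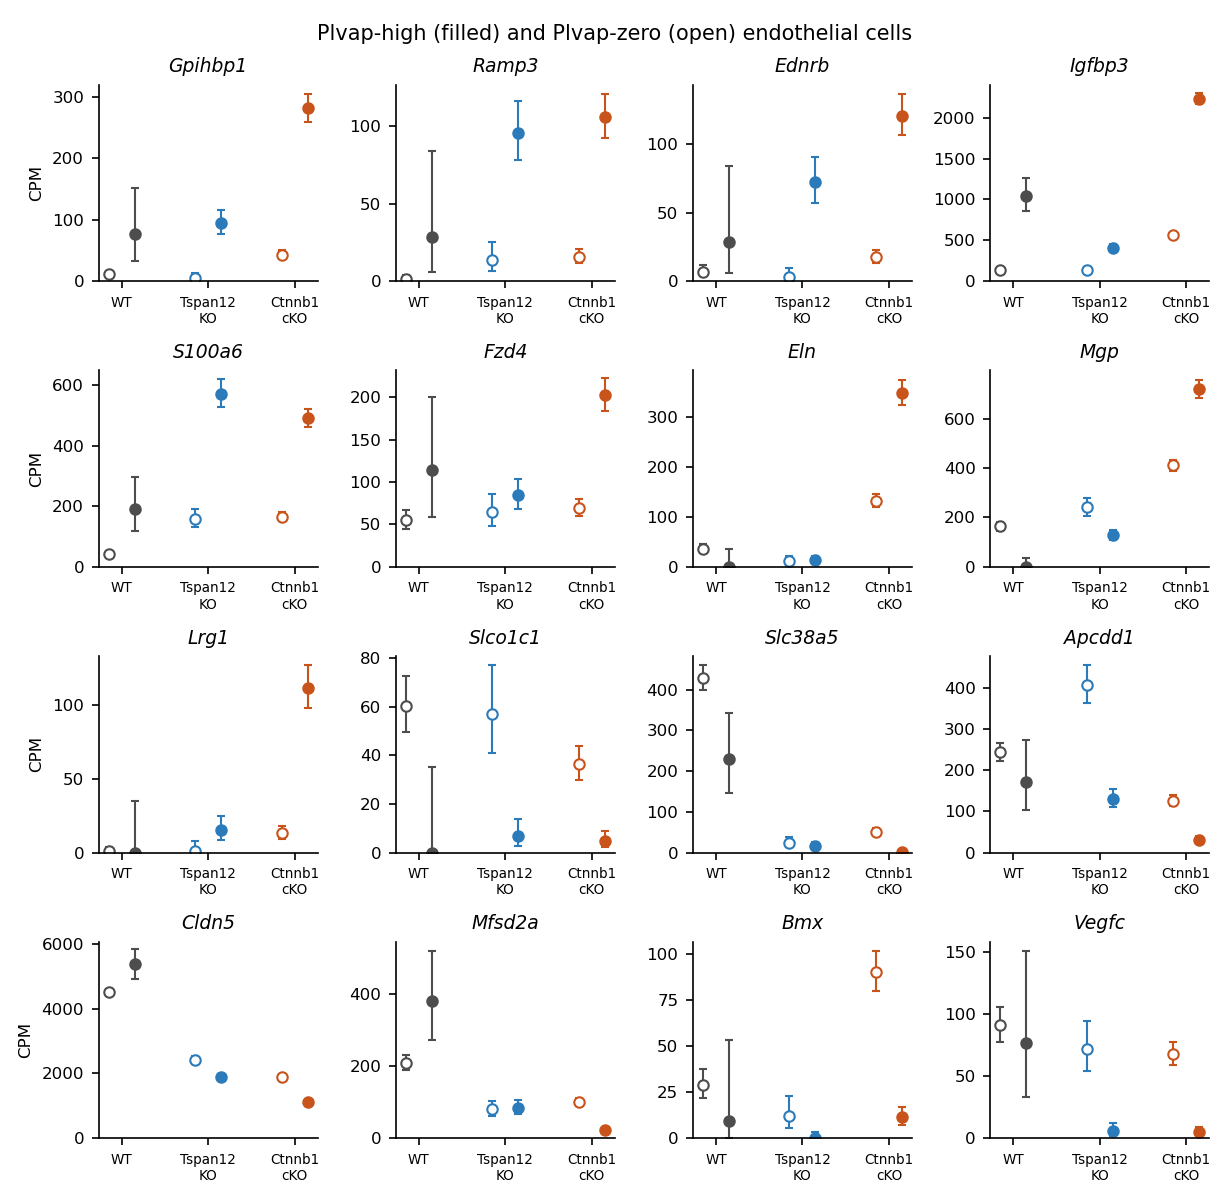
CPM of 16 genes in the summed UMIs of Plvap-high (filled) and Plvap-zero (open) endothelial cells of each library, with exact Poisson 95% intervals (counting error only); every axis starts at 0. *Gpihbp1*, *Ramp3*, *Ednrb*, *Igfbp3* and *S100a6* are higher in the filled points of every library, *Slco1c1* and *Apcdd1* are lower, and *Mgp*, *Cldn5* and *Mfsd2a* differ in direction between libraries.

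Within the same limits, the genes with the largest falls included a barrier transporter and a lymphangiogenic ligand. *Slco1c1*, which carries thyroxine and organic anions across brain endothelium, was at 0, 6.66 and 4.78 CPM in Plvap-high ECs against 60.4, 57.1 and 36.4 CPM in Plvap-zero ECs (log2 fold change −2.91, SE 0.41, adjusted p = 1.70e-04 in edgeR). Its 3 lower values lay far below its 3 higher ones. *Vegfc*, a ligand of VEGFR3, was at 76.5, 5.71 and 5.26 CPM against 90.9, 72.0 and 67.9 CPM (−2.69, SE 0.44, adjusted p = 7.31e-04). The *Vegfc* difference was therefore about 12.6-fold and 12.9-fold in the knockout libraries and 1.19-fold in WT, where its counting interval included no difference, and its call was lost without *Ctnnb1* cKO. *Pid1*, an insulin-signalling adaptor, was at 0, 30.4 and 14.3 CPM against 32.1, 219 and 77.1 CPM (−2.48, SE 0.32, adjusted p = 4.42e-05). Its call held in all 14 alternatives with the library term. The sodium-calcium exchanger *Slc8a1* (−2.62), the membrane proteolipid *Mal* (−2.89) and *Fam13a* (−2.40) had no UMI in the WT Plvap-high ECs.

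*Lsamp* (−2.27), *Grb14* (−2.19) and *Stmn2* (−2.19) were also among the 10 largest falls within these limits, which leave out, among others, *Gja5*, *Bmx* and *Slco1a4*. *Lsamp* and *Stmn2* are best known from neurons, and rod RNA moved with them. The 8 rod markers summed to 2.96, 4.37 and 1.70 per 10000 UMIs in Plvap-high ECs and to 5.24, 15.1 and 3.36 in Plvap-zero ECs. Of the 7 rod markers tested, 4 were lower (*Sag*, *Pdc*, *Nr2e3* and *Gngt1*), and 7 of 8 were detected in the WT Plvap-high ECs, with *Gnat1* at 0. The bipolar and amacrine list had 1 lower gene, *Tfap2b*, among 3 tested. The part of neuronal RNA in these falls was not tested. Without the cells that carried over 20 per 10000 of another type's markers, 97 genes were lower and 74 higher.

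Genes of fenestrated capillaries differed in both directions, and caveola genes had fitted changes above 0 with 1 call. Of 16 fenestrated-capillary genes tested, 4 rose (*Gpihbp1*, *Ramp3*, *Igfbp3* and *Timp4*) and 2 fell (*Meis2* and *Tmem100*), with a median log2 fold change of 0.54. Within the libraries 9, 9 and 8 of the 16 were higher in Plvap-high ECs, and in *Ctnnb1* cKO the other 8 were lower (median 0.07 on the log2(CPM + 5) scale). Over all 10668 genes, 42.1%, 37.3% and 35.7% were higher in Plvap-high ECs of WT, *Tspan12* KO and *Ctnnb1* cKO. The medians over all genes on the log2(CPM + 5) scale were −0.14, −0.18 and −0.16. *Timp4*, a metalloproteinase inhibitor, was detected in *Ctnnb1* cKO Plvap-high ECs (33.5 CPM against 2.62) and had 0 UMIs in both classes of the other libraries. The orphan receptor *Cd300lg* was at 0, 13.3 and 28.7 CPM against 0, 5.44 and 7.22 CPM (adjusted p = 0.0511 in edgeR).

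All 11 caveola genes had a positive fold change (median 0.63), beside a median of −0.02 over all genes tested. The 1 called was *Emp1*, a membrane protein of the PMP22 family, at 134, 256 and 207 CPM against 67.4, 115 and 117 CPM (log2 fold change 1.13, adjusted p = 0.0101 in edgeR). Its call was lost without *Tspan12* KO. *Cav1*, the main caveola coat protein, was at 210, 228 and 108 CPM against 112, 105 and 92.9 CPM (0.86, adjusted p = 0.0672). In WT alone 5 of the 11 were higher and 6 lower, beside 42.1% higher over all genes. Among 9 lipid-handling genes, *Tcf15*, a transcription factor of fatty-acid-transporting capillaries, rose with *Gpihbp1* (9.56, 18.1 and 48.3 CPM against 6.95, 6.79 and 17.1 CPM, log2 fold change 1.55, adjusted p = 0.0315), on 1 UMI in WT, and lost its call in 7 of 13 alternatives. *Cd36*, *Fabp4*, *Lipg* and *Pparg* were at 0 to 3 UMIs in every sum of Plvap-high ECs.

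Basement membrane genes had the highest median of the vascular lists, 0.79 beside −0.02 over all genes, with 13 of 14 positive and 1 called. That was *Nid2*, nidogen-2, at 210, 135 and 147 CPM against 118, 66.6 and 87.0 CPM (log2 fold change 1.003, adjusted p = 0.0209 in edgeR), which lost its call in 10 of 15 alternatives. *Col4a1*, the main collagen IV chain, was at 3022, 2816 and 5042 CPM against 1498, 1592.5 and 3357 CPM (0.93, adjusted p = 0.0870). Tip-cell genes followed with a median of 0.72 and 3 of 16 called, all higher (*Nid2*, *Ednrb* and *Igfbp3*). By library 12, 14 and 7 of the 16 were higher. In *Ctnnb1* cKO 9 were lower, with a median of −0.01 on the log2(CPM + 5) scale. Over all genes 64.3% were lower there, with a median of −0.16. *Esm1*, endocan, which marks sprouting tips, was at 47.8, 119 and 25.8 CPM against 3.74, 20.4 and 29.2 CPM, and was thus higher in WT and *Tspan12* KO and not in *Ctnnb1* cKO. Of the 5 receptor-complex genes, *Fzd4*, the Norrin receptor, rose, at 115, 84.6 and 203 CPM against 55.1, 65.2 and 69.6 CPM (1.19, SE 0.27, adjusted p = 0.0141). Its call was lost without WT and without *Ctnnb1* cKO. *Lrp5* was at 38.3, 43.7 and 96.1 CPM against 33.1, 31.3 and 37.7 CPM (1.04, adjusted p = 0.0672).

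**Figure D3:**
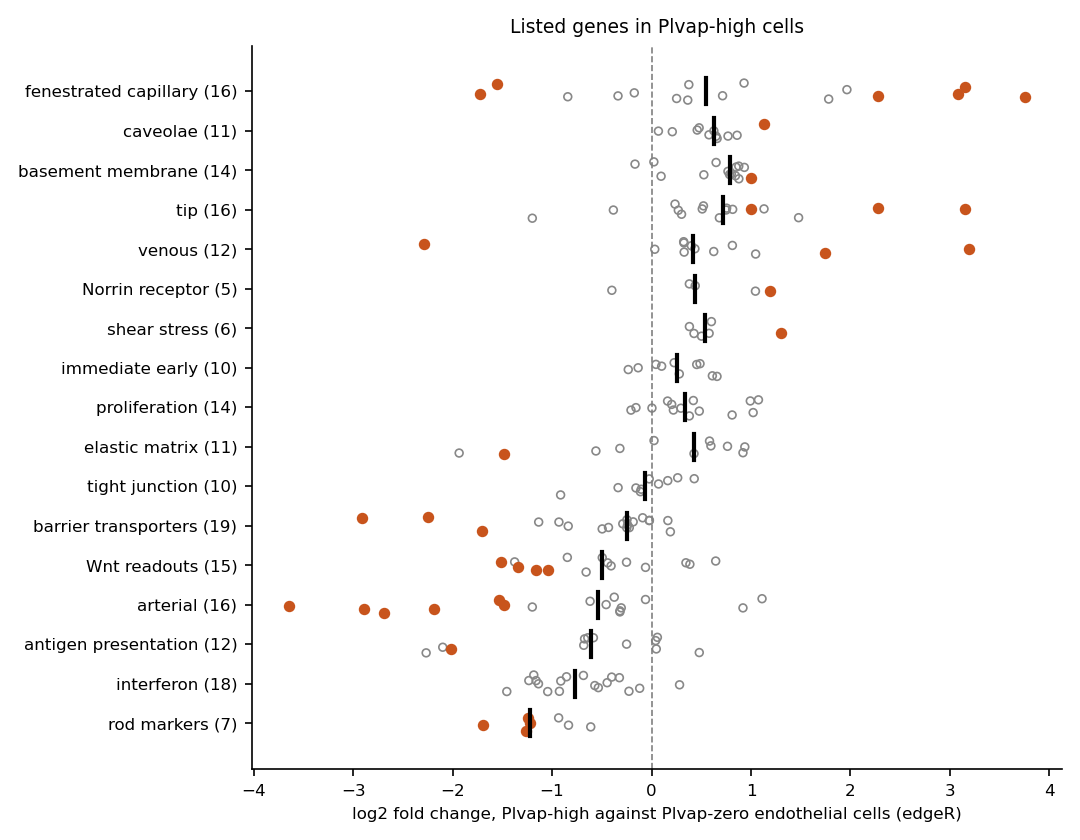
Fitted log2 fold changes of Plvap-high against Plvap-zero endothelial cells for genes of 17 lists, 1 point per gene, with the number tested in parentheses, the list median as a black bar and genes at an adjusted p under 0.05 filled. Medians run from −1.22 for rod markers to 0.79 for basement membrane genes.

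Most barrier transporters were lower in the Plvap-high ECs of the knockout libraries, and about as many were higher as lower in WT. The difference between libraries was not tested. Across libraries 0 of 19 rose and 3 fell, with a median of −0.25. Besides *Slco1c1* these were *Slco1a4*, another organic-anion carrier, at 0, 23.8 and 15.3 CPM against 8.55, 151 and 71.5 CPM (log2 fold change −2.24, adjusted p = 1.88e-04 in edgeR), and *Slc38a5*, a glutamine transporter of retinal vessels, at 230, 16.2 and 1.91 CPM against 429, 24.5 and 51.2 CPM (−1.71, adjusted p = 0.0292). The call of *Slc38a5* was lost without WT and without *Ctnnb1* cKO. Within a library, 10 of the 19 were higher in Plvap-high ECs for WT, 3 for *Tspan12* KO and 1 for *Ctnnb1* cKO. Over all genes these shares were 42.1%, 37.3% and 35.7%. *Mfsd2a*, the lipid transporter that restrains transcytosis, was at 383, 85.6 and 22.9 CPM against 209, 81.5 and 101 CPM. *Slc2a1* was at 1128, 861 and 718 CPM against 719, 1162 and 1096 CPM. Both were higher in the Plvap-high ECs of WT and lower in those of *Ctnnb1* cKO, beyond counting error.

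None of the 10 tight junction genes tested was called in either direction by edgeR at an adjusted p under 0.05, and their median was −0.06. *Cldn5*, claudin-5, was at 5365, 1888 and 1134 CPM in Plvap-high ECs against 4502, 2424 and 1893 CPM. Its log2 ratio of Plvap-high to Plvap-zero ECs was 0.25 for WT (95% counting interval 0.13 to 0.38), −0.36 for *Tspan12* KO (−0.45 to −0.27) and −0.74 for *Ctnnb1* cKO (−0.81 to −0.67). The WT value rests on a few cells. One held 31.4% of the 561 UMIs, the WT level without it was 4771 CPM, and the median level per WT cell was 43.8 per 10000 UMIs in Plvap-high and 46.0 in Plvap-zero ECs. The number of the 10 genes that were higher in Plvap-high ECs was 9 for WT, 3 for *Tspan12* KO and 1 for *Ctnnb1* cKO, beside 42.1%, 37.3% and 35.7% of all genes.

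Of 15 Wnt readouts tested, 4 fell and 0 rose, with a median of −0.50. *Apcdd1*, a feedback inhibitor of the pathway, was at 172, 130 and 31.6 CPM against 243, 406 and 125 CPM (log2 fold change −1.34, SE 0.27, adjusted p = 0.00498 in edgeR). It was lower in each library, though in WT its counting interval included no difference, and its call was lost without *Ctnnb1* cKO. *Spock2*, a matrix proteoglycan, was at 516, 134 and 181 CPM against 653, 399 and 510 CPM (−1.04, adjusted p = 0.0288). The receptor *Tnfrsf19* was at 57.4, 45.7 and 15.3 CPM against 47.6, 164 and 68.9 CPM (−1.52, adjusted p = 0.00924), so that WT alone was not lower. The calls of *Spock2* and *Tnfrsf19* were each lost without *Tspan12* KO and without *Ctnnb1* cKO. *Nkd1*, another feedback inhibitor, was at 19.1, 49.5 and 21.5 CPM against 36.9, 163 and 44.3 CPM (−1.16, adjusted p = 0.0313) and lost its call without any 1 of the 3 libraries. *Axin2*, a general target of β-catenin, was at 9.56, 38.0 and 17.7 CPM against 13.4, 73.4 and 40.0 CPM (adjusted p = 0.211).

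Of 16 arterial genes tested, 6 fell and 0 rose, with a median of −0.54. Those that fell were *Gja5* (connexin 40), *Bmx*, *Vegfc*, *Stmn2*, *Hey1* and *Fbln5*. *Bmx*, a kinase of arterial endothelium, was at 9.56, 0 and 11.5 CPM against 28.9, 12.2 and 90.2 CPM (log2 fold change −2.89, adjusted p = 6.82e-04 in edgeR), and its call, like that of *Hey1*, was lost without *Ctnnb1* cKO. *Gja5* was at 0, 0 and 2.39 CPM against 11.2, 8.15 and 29.2 CPM (−3.65, adjusted p = 0.00370). *Gja4*, connexin 37, was higher in the Plvap-high ECs of WT alone, at 813, 75.1 and 52.6 CPM against 176, 272 and 236 CPM. Of 11 elastic matrix genes 0 rose and 1 fell (*Fbln5*), with a median of 0.43, and *Fbln5* lost its call without WT and without *Ctnnb1* cKO. Among 12 venous genes 2 rose and 1 fell, with a median of 0.42. *Lrg1*, a secreted glycoprotein of venules, was at 0, 15.2 and 112 CPM against 1.07, 1.36 and 13.1 CPM (3.19, SE 0.44, adjusted p = 1.10e-04). *Ptgs1*, cyclooxygenase-1, was at 0, 26.6 and 53.5 CPM against 5.88, 8.15 and 15.7 CPM (1.74, adjusted p = 0.0195). *Vcam1*, a leukocyte adhesion molecule, fell, at 47.8, 1.90 and 5.74 CPM against 20.9, 17.7 and 57.7 CPM (−2.29, adjusted p = 0.0286). *Nr2f2*, the transcription factor of vein identity, was at 38.3, 70.4 and 66.0 CPM against 88.2, 91.0 and 29.2 CPM, and was higher in *Ctnnb1* cKO only.

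Interferon-stimulated genes were lower in the Plvap-high ECs of *Ctnnb1* cKO and mostly higher in those of *Tspan12* KO. None of the 18 was called by edgeR, and their median was −0.77. All 18 were lower in Plvap-high ECs of *Ctnnb1* cKO, 10 were lower in those of WT, and 3 were lower and 14 higher in those of *Tspan12* KO. Over all genes 64.3%, 57.7% and 62.5% were lower in these libraries, in that order. *Isg15*, a ubiquitin-like interferon target, was at 9.56, 22.8 and 50.2 CPM against 25.1, 9.51 and 231 CPM. Of 12 antigen-presentation genes 1 fell, *Cd74*, on 36.3 CPM against 178 CPM in *Ctnnb1* cKO and at most 1 UMI in each sum of the other libraries. *Cd74* is also expressed by macrophages, and the microglia markers in these sums were 5.19 per 10000 UMIs in Plvap-high and 6.21 in Plvap-zero ECs. Of 6 shear-responsive genes, *Thbd*, thrombomodulin, rose (76.5, 53.3 and 30.6 CPM against 41.7, 23.1 and 12.5 CPM, log2 fold change 1.30, adjusted p = 0.0234 in edgeR), and lost its call in 9 of 14 alternatives. None of 10 immediate early genes and none of 14 proliferation genes was called, and the rule had already limited cycling cells in both classes. Over all genes tested in edgeR, 594 higher and 896 lower reached an unadjusted p under 0.05.

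In the *Ctnnb1* cKO library, several genes differed by level of *Plvap*. Its non-cycling ECs were grouped, by limits chosen after seeing the data, by *Plvap* per 10000 UMIs into none (827 cells), under 2.5 (226), 2.5 to 5 (252), 5 to 10 (194) and 10 or over (140). Left out were 58 ECs that reached 5 per 10000 with a single *Plvap* UMI, and 7 such ECs in *Tspan12* KO. Single-UMI cells under that level were kept. *Gpihbp1* was at 42.3, 51.4, 141, 251 and 335 CPM in that order, and *Igfbp3* at 564, 530, 1081, 1823 and 2978 CPM. *Mfsd2a* was at 101, 74.0, 80.4, 25.2 and 18.8 CPM, *Apcdd1* at 125, 116, 93.1, 36.3 and 22.9 CPM, and *Isg15* at 231, 173, 156, 64.5 and 24.2 CPM. *Mgp* did not follow one direction, at 411, 73.1, 219, 628 and 890 CPM. The groups differed in depth, with medians of 2848, 8201, 4266, 5184 and 4072 UMIs per cell, and the part of depth was not tested. In *Tspan12* KO, *Gpihbp1* was at 5.44, 21.9, 40.7, 44.8 and 339 CPM and *Apcdd1* at 406, 291, 132, 107 and 244 CPM over 88, 87, 57, 40 and 8 cells. *Mfsd2a* stayed between 76.9 and 128 CPM there. In WT, 3 cells reached 10 per 10000.

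**Figure D4:**
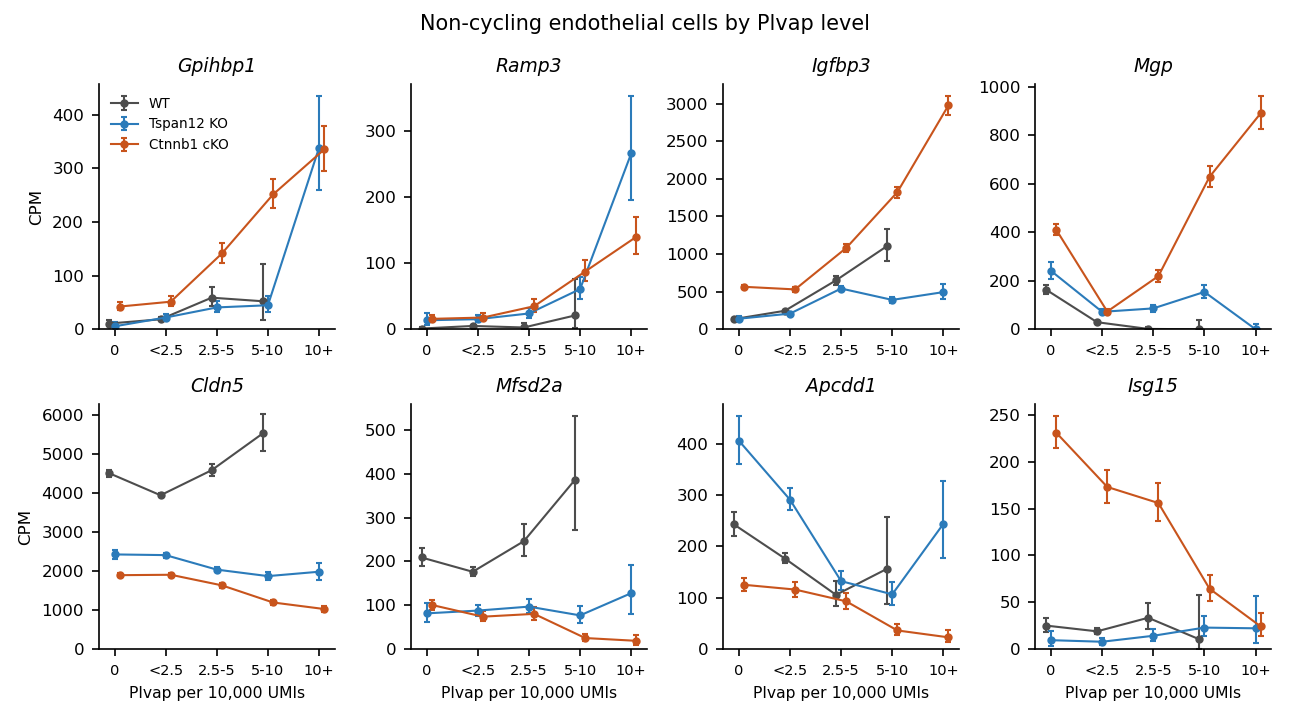
CPM of 8 genes in summed UMIs of non-cycling endothelial cells grouped by *Plvap* UMIs per 10,000 (x axis), with exact Poisson 95% intervals. The WT group at 10 and over, with 3 cells, is left out, as are cells at 5 or more with a single *Plvap* UMI. In *Ctnnb1* cKO *Gpihbp1* goes from 42.3 to 335 and *Mfsd2a* from 101 to 18.8 between the first and the last group.

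*Eln* and *Mgp* divided the *Ctnnb1* cKO members. Of the 334 cells, 160 had an *Eln* UMI, 184 an *Mgp* UMI, 143 both and 201 at least 1 of them, and the Spearman correlation of the 2 levels over the 334 cells, which share 1 library, was 0.72. *Gpihbp1*, found in 188 cells, did not go with *Mgp* (−0.03). As a description chosen after seeing the data, the cells were split at a summed *Eln* and *Mgp* level of 10 per 10000. Above it lay 119 members (35.6%) and 78 Plvap-zero ECs (9.43%) of the same library. In the Plvap-zero ECs above the level, the 16 other arterial genes summed to 4012 CPM, against 1314 CPM below it. In Plvap-high ECs the same genes summed to 517 CPM above the level and 505 CPM below it. *Gja5* was at 132 and 19.7 CPM in the 2 Plvap-zero subsets and at 2.38 and 2.40 CPM in the 2 Plvap-high subsets.

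The Plvap-high ECs rich in *Eln* and *Mgp* carried more of several other genes than the remaining members. The microfibril gene *Mfap2* was at 313 CPM against 113, the fibulin gene *Fbln2* at 273 against 56.7, the complement inhibitor *Cd59a* at 537 against 138 and *Lrg1* at 172 against 71.9. They carried less of the protocadherin gene *Pcdh17* (42.9 against 231 CPM), the T-cadherin gene *Cdh13* (36.9 against 241), the tip-cell ligand *Apln* (15.5 against 83.0) and *Isg15* (8.34 against 78.3). *Gpihbp1* was at 200 against 335 CPM. Mural cells also express *Mgp* and *Eln*, and their marker *Rgs5* stood at 188 against 69.5 CPM in these members and at 987 against 32.6 CPM in the Plvap-zero subsets. The part of mural RNA was not tested. In *Tspan12* KO 2 of 48 members and in WT 0 of 13 exceeded the level.

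Cells with a UMI of *Gpihbp1* were 4 of 13 in WT, 23 of 48 in *Tspan12* KO and 188 of 334 in *Ctnnb1* cKO (30.8%, 47.9% and 56.3%, at median depths of 5482, 15160 and 4905 UMIs). In rods the shares were 0.562%, 0.352% and 1.91% at median depths of 4444, 5306 and 3412 UMIs. *Slc38a5* was found in 5, 5 and 4 members, and the *Ctnnb1* cKO share of 1.20% lay below the 1.499% of rods there, at the level of background. *Six3*, a homeobox gene known from the retina's neural lineage, was found in 0 of 13, 20 of 48 and 202 of 334 members. The 0 of 13 allows up to 24.7% of WT members with a *Six3* UMI at this depth (exact binomial), which does not limit the share expressing it. Its level was 0, 216 and 358 CPM in Plvap-high against 31.0, 177 and 320 CPM in Plvap-zero ECs (adjusted p = 0.809 in edgeR). Rods express it, with a UMI in 52.2%, 53.9% and 59.1% of cells.

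Between genotypes, Plvap-high ECs were compared by the ratio of a knockout library to WT, with the same ratio in Plvap-zero ECs beside it. Intervals cover counting error only, and 13 WT cells stand behind each ratio. *Cldn5* was 2.84-fold lower in *Tspan12* KO than in WT Plvap-high ECs (log2 ratio −1.51, 95% interval −1.64 to −1.37) and 4.73-fold lower in *Ctnnb1* cKO (−2.24, −2.38 to −2.11). In Plvap-zero ECs the log2 ratios were −0.89 and −1.25. *Gpihbp1* differed from WT in *Ctnnb1* cKO (1.88, 0.89 to 3.10) and not beyond counting error in *Tspan12* KO (0.31, −0.72 to 1.56). The Plvap-zero ratios of *Gpihbp1* were 1.98 and −0.98, so the *Ctnnb1* cKO difference was of like size in both classes. The WT value was 8 UMIs in 4 cells, and at a *Plvap* limit of 10 per 10000, with 3 WT cells, the *Ctnnb1* cKO ratio on the log2(CPM + 5) scale was −0.0255 in place of 1.81. *Igfbp3* was lower in *Tspan12* KO (−1.35, −1.66 to −1.04) and higher in *Ctnnb1* cKO (1.10, 0.83 to 1.39), beside Plvap-zero ratios of 0.06 and 2.07. Its WT sum came largely from 1 cell, without which it was 561 CPM. By cells the order of WT and *Tspan12* KO was the other way, with *Igfbp3* in 5 of 13 WT cells (median 0 per 10000 UMIs) and in 36 of 48 *Tspan12* KO cells (median 2.08), which were the more deeply sequenced (median 15160 against 5482 UMIs).

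Lists were described over the genes with at least 30 UMIs in 1 of the 3 Plvap-high sums, on the log2(CPM + 5) scale, which understates changes of low genes. That limit is a higher level in the small WT sum than in the others, and 543 of the 7549 genes reached it in WT, so most entered through a knockout sum, and counts of higher genes in the lists are given as a description. Over all 7549 such genes the median ratio to WT was 0.02 for *Tspan12* KO and −0.05 for *Ctnnb1* cKO, and TMM scaling would add 0.06 and 0.19. Of 7549 genes 8.01% and 15.9% were at least 2-fold lower, and 15.4% and 18.6% at least 2-fold higher. Barrier transporters had medians of −0.66 and −1.16, with 3 and 7 of 14 at least 2-fold lower and 1 and 2 higher. Tight junction genes had medians of −0.75 and −1.19, with 3 and 5 of 8 at least 2-fold lower and 0 higher. Wnt readouts had medians of −0.15 and −1.25, with 4 and 7 of 12 at least 2-fold lower and 2 and 0 higher. Among them *Axin2* was above WT in both knockouts, at 1.56 and 0.64, on 1 WT UMI. Its Plvap-zero ratios were 2.09 and 1.29. In Plvap-zero ECs the medians of the same genes were 0.17 and −0.51 for barrier transporters, −0.27 and −0.64 for tight junctions, and 0.27 and 0.12 for Wnt readouts.

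Interferon-stimulated genes had medians of 0.47 and 1.95 in Plvap-high ECs, and of −0.28 and 2.74 in Plvap-zero ECs, but 1 of the 15 reached 30 UMIs in WT. With genes kept instead by a mean of at least 20 CPM over the 3 sums, a choice made after seeing the data, 9 remained, and their medians in Plvap-high ECs were −0.06 and 0.83. Microglia markers were higher in *Ctnnb1* cKO too, with sums of 2.01 and 5.19 per 10000 UMIs in Plvap-high ECs of WT and *Ctnnb1* cKO and of 1.54 and 6.21 in Plvap-zero ECs. Their part in the interferon ratios was not tested. Venous genes had medians of 0.80 and 1.03 in Plvap-high ECs and −0.55 and 0.02 in Plvap-zero ECs. Caveola genes had medians of 0.91 and 1.04 against 0.15 and 0.70. Only 1 of the 11 venous genes and 0 of the 11 caveola genes reached 30 UMIs in WT, so these entered almost only through a knockout sum. The mean limit can also be met through a knockout sum alone, as by *Lrg1*, which had 0 UMIs in WT members. With the mean limit the Plvap-high medians were 0.80 and 1.03 for venous genes, 0.75 and 0.84 for caveola genes, −0.71 and −1.58 for barrier transporters, −0.90 and −1.25 for tight junctions and −0.15 and −1.25 for Wnt readouts, beside −0.07 and −0.24 over all 6699 genes.

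**Figure D5:**
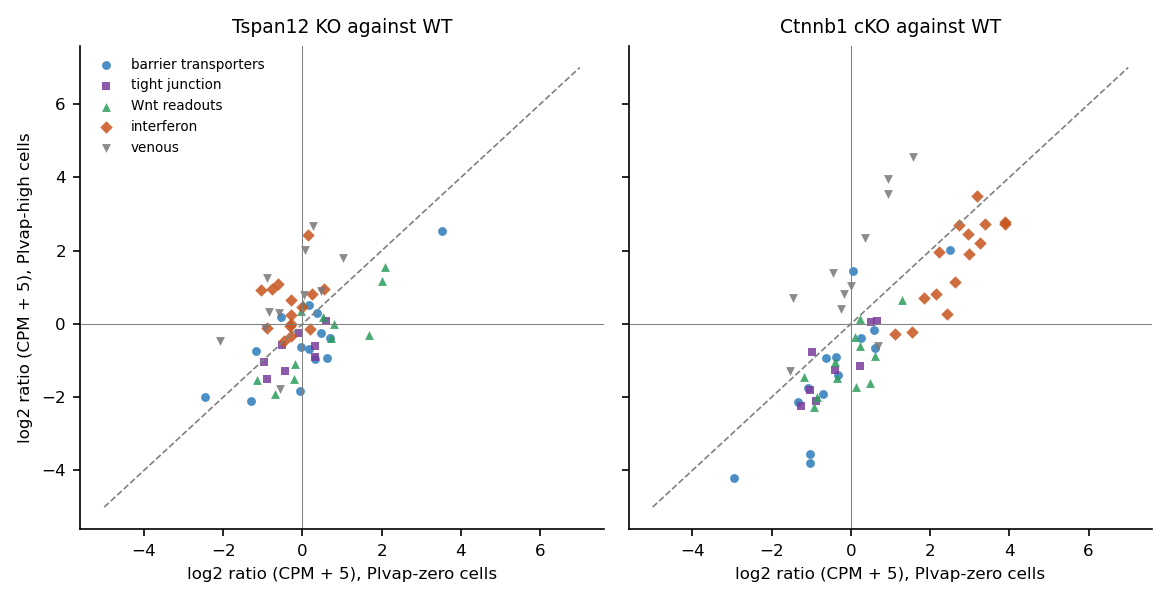
Log2 ratios of a knockout library to WT on the CPM + 5 scale in Plvap-zero (x axis) and Plvap-high (y axis) endothelial cells for genes of 5 lists, 1 point per gene; the dashed line marks equal ratios. In *Ctnnb1* cKO most barrier, tight junction and Wnt points lie below the line and venous points above it, with list medians in Plvap-high cells of −1.16, −1.19, −1.25 and 1.03.

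The 8 genes ranked first for rises in both knockouts on the log2(CPM + 5) scale had no UMI in the 13 WT members, so their folds are lower bounds against a floor of 3 counts in the WT sum. *Six3* was at least 7.52-fold higher in *Tspan12* KO and at least 12.5-fold in *Ctnnb1* cKO, *Mgp* at least 4.44-fold and 25.1-fold, and the water channel *Aqp1* at least 3.12-fold and 6.38-fold. The *Mgp* UMIs came from 9 of the 48 *Tspan12* KO members (18.8%), and 0 of 13 allows a share of up to 24.7% in WT (exact binomial). The *Mgp* bound for *Tspan12* KO therefore does not show that more cells expressed it. *Irf2bp2* reached at least 3.08-fold and 3.68-fold, *Serpine2* 2.22-fold and 2.5-fold and *Gas6* 2.22-fold and 2.45-fold. These last bounds lie below the 2.99-fold and 2.56-fold of *S100a6*, which WT members did express, so the 8 are not shown to be the largest rises. *Six3* and *Aqp1* differed in Plvap-zero ECs as well, by 5.70-fold and 10.3-fold and by 38.8-fold and 51.8-fold. Plvap-zero ECs of WT did express several of them, with *Mgp* at 164 CPM, *Irf2bp2* at 63.6 CPM and *Serpine2* at 48.7 CPM. Rods express *Six3*, with a mean level per cell of 1.60, 1.57 and 3.37 per 10000 UMIs in WT, *Tspan12* KO and *Ctnnb1* cKO. In Plvap-high ECs that mean was 0, 1.32 and 3.63. Mural cells express *Mgp*, and the part of rod or mural RNA in these rises was not tested. The remaining 2 genes are markers of other cells. *Hba-a1*, haemoglobin alpha, was at 1176 CPM in *Tspan12* KO members, with 47.0% of its UMIs in 1 cell, and the pericyte gene *Rgs5* was at 472 CPM. The mural list summed to 0, 5.91 and 2.04 per 10000 UMIs in Plvap-high ECs of WT, *Tspan12* KO and *Ctnnb1* cKO, with all 8 markers at 0 in WT, and the erythrocyte list to 0.287, 76.6 and 2.95.

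Falls in both knockouts were ranked among genes with at least 30 UMIs in the WT sum, which 543 of 7549 genes reached. These genes entered through the sum in which they were high, so the ranking is a description. The 8 largest falls among them were *Nebl*, *Gja4*, *Cxcl12*, *Lrp8*, *Itm2a*, *Glul*, *Cmss1* and *Nxpe4*. *Gja4* was at 813, 75.1 and 52.6 CPM, and the chemokine *Cxcl12* was at 411, 15.2 and 58.8 CPM. *Lrp8*, a lipoprotein receptor of retinal endothelium, was at 449, 66.6 and 19.1 CPM, and the membrane protein *Itm2a* at 1348, 209 and 131 CPM. The last 2 were lower in Plvap-zero ECs too, with log2 ratios of −1.90 and −2.04 for *Lrp8* and −1.56 and −2.56 for *Itm2a*. Single WT cells weighed heavily here. One cell held 86.1% of the WT UMIs of *Nebl*, an actin-binding protein gene, 76.7% of those of *Cxcl12*, 56.7% of *Itm2a*, 52.5% of *Glul* and 45.9% of *Gja4*. Without that cell *Gja4* was at 570 CPM, *Itm2a* at 756 CPM, *Cxcl12* at 124 CPM and *Nebl* at 62.0 CPM, all still above both knockouts. *Nebl* was found in only 2 WT cells, so its remaining value came from 1 other cell. *Lrp8*, *Cmss1* and *Nxpe4* were spread over 10, 13 and 10 WT cells.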

How the data were processed

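The deposited matrices hold raw UMI counts of 33696 genes per barcode, made by the authors with Cell Ranger (8.0.1 per the file headers; GRCm39 per the submitters' processing notes), with no barcode under 500 UMIs. Groups came from the genotype labels. The members, the gene lists and the rule for named genes were chosen with earlier results of these data known. Cells were selected as the report states. UMIs were summed per library and class (no *Plvap* UMI, or Plvap-high), and genes with at least 50 UMIs over the 6 sums were tested with edgeR 4.0.16 (TMM, quasi-likelihood, library and class as terms, Benjamini-Hochberg over 10668 genes), leaving out the genes of the rule. Named genes were list members and the 10 largest rises and falls among called genes with at least 20 CPM in the higher class of every library and 1 sign in all of them. The 8 largest rises and falls in both knockouts were named too. Rises needed at least 30 UMIs in both knockout sums of Plvap-high ECs, and falls at least 30 in the WT sum. In the simulated test of this comparison on 10664 genes, 98% of 4-fold rises, 70.8% of 4-fold falls and 0.0573% of unchanged genes were called. Alternatives used DESeq2 1.42.0, other filters, other limits, thinned cells, doublet removal (Scrublet scores in scanpy 1.11.5, at 0.8% per 1000 cells) and each library left out. Where a gene had no UMI, folds were set against 3 counts per library sum. Library totals were 37008362 to 137114957 UMIs. Intervals cover counting error only. Rods were cells with at least 20 rod-marker and under 2 endothelial UMIs per 10000. Some results for named genes are not reported here.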

Additional observations from a re-analysis of the deposited data

Results flagged for a closer look

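Of 240 listed pathway genes, 35 differed between Plvap-high and Plvap-zero ECs in opposite directions in 2 libraries with both counting intervals excluding no difference. Among them 7 did so by at least 2-fold each way. The share of all genes that did so was not counted, so these counts do not set the listed genes apart. The difference between libraries was not tested. *Gja4* (connexin 37) had a log2 ratio of Plvap-high to Plvap-zero ECs of 2.21 in WT and −2.17 in *Ctnnb1* cKO, a difference of 4.38. *Cxcl12* had 1.68 in WT and −1.70 in *Ctnnb1* cKO, a difference of 3.38. *Col18a1*, a basement membrane collagen, had 1.29 in WT and −1.01 in *Ctnnb1* cKO, a difference of 2.31. The interferon-stimulated genes *Isg15* and *Bst2* and the immunoproteasome subunit *Psmb8* were higher in Plvap-high ECs of *Tspan12* KO (1.26, 1.38 and 1.20) and lower in those of *Ctnnb1* cKO (−2.20, −1.21 and −1.24), differences of 3.47, 2.59 and 2.44. The mitotic spindle gene *Tpx2* had 1.92 in *Tspan12* KO and −1.08 in *Ctnnb1* cKO, a difference of 2.99, on 27 and 14 UMIs. The WT values rest on 13 cells, and 1 of them held 45.9% of the *Gja4* UMIs and 76.7% of those of *Cxcl12*.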

How the results depend on the processing

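The 80 higher and 188 lower genes became 26 and 64 with DESeq2, 37 and 44 with cells thinned to 1000 UMIs (5033 genes tested) and 213 and 316 at a *Plvap* limit of 2.5, and 0 and 0 without the library term, where 227 and 403 reached an unadjusted p under 0.05 in edgeR. The higher genes were 51 at a *Plvap* limit of 10, 152 without the filter on low counts and 121 with cycling ECs in the reference. The lower genes were 106 with doublets removed, 93 at an endothelial sum of 20 and 97 without cells carrying other types' markers. With 1 library left out, 28 to 120 genes were higher and 75 to 106 lower: 120 and 106 without WT, 79 and 75 without *Tspan12* KO, 28 and 106 without *Ctnnb1* cKO. Among those of the main test were 24 of the 26 and 64 of the 64 with DESeq2, 59 of the 120 and 94 of the 106 without WT, 46 of the 79 and 56 of the 75 without *Tspan12* KO, 16 of the 28 and 92 of the 106 without *Ctnnb1* cKO, and 53 of the 213 and 161 of the 316 at the limit of 2.5. The uncalled values of *Eln*, *Mgp* and *Cldn5* changed sign: *Eln* to −0.0691 with DESeq2, *Mgp* to 0.38 without the library term, 0.0397 thinned, 0.43 at the endothelial sum of 20 and 0.43 without cells carrying other types' markers. With 1 library left out they ranged from −0.37 (without *Ctnnb1* cKO) to 1.34 (without WT) for *Eln*, from −1.23 (without *Ctnnb1* cKO) to 0.20 (without WT) for *Mgp*, and from −0.353 (without WT) to 0.0588 (without *Ctnnb1* cKO) for *Cldn5*. The shares in WT, *Tspan12* KO and *Ctnnb1* cKO were 0.503%, 1.995% and 6.35% at a limit of 10 and 6.04%, 24.9% and 21.2% at 2.5, so that *Tspan12* KO was the higher of the knockouts there. Thinned to 2000 UMIs they were 8.82% and 11.1% in the knockouts, with cycling ECs 18.7% and 17.97%, and 17.5% in *Ctnnb1* cKO cells of at least 4000 UMIs. On the CPM + 5 scale the log2 ratio of *Gpihbp1* to WT turned from 0.30 to −0.0118 in *Tspan12* KO and from 1.81 to −0.0255 in *Ctnnb1* cKO at a limit of 10, where WT had 3 cells. *Cldn5* moved from −1.50 to −0.88 in *Tspan12* KO and from −2.24 to −1.82 in *Ctnnb1* cKO there, and to −2.04 in *Ctnnb1* cKO with TMM factors. *Nebl* in *Ctnnb1* cKO turned to 0.85 at that limit. The causes were not tested. With list genes kept by a mean of 20 CPM, an alternative chosen after seeing the data, the interferon medians to WT moved from 0.47 to −0.06 in *Tspan12* KO and from 1.95 to 0.83 in *Ctnnb1* cKO. The main test paired the classes by library, and the fit without the library term is the unpaired one. Genotypes share no replicate numbers.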
